A study of Mus musculus with 49 samples.

Results

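Among 49 single neurons labelled in the mouse embryo and collected from the somatosensory cortex after birth, 17 carried markers of inhibitory neurons (34.7%, exact 95% interval 21.7 to 49.6%). These inhibitory-marker cells were defined by at least 2 of Gad1, Gad2, Slc32a1, Dlx1, Lhx6 and Sst at 10 RPM or more, where RPM express a gene's reads relative to a common total for all cells. In 4 of the 17, called inhibitory-only cells here, Slc17a7, Neurod2 and Neurod6 were all under 10 RPM, and the other 13 are called mixed cells. They were compared with 26 excitatory-marker cells (53.1%, 38.3 to 67.5%), which did not meet the inhibitory rule and in which at least 2 of these 3 excitatory markers reached 10 RPM. The remaining 6 cells met neither rule and were left out. These 9 genes chose the cells, so their values are a description and support nothing further.

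All cells came from wild-type CD1 mice. A fluorescent dye, FlashTag (FT), was injected into the ventricle at embryonic day E13.5, and bright FT cells were taken by patch pipette at postnatal day P7 (Patchseq). FT marks cells that divide at the ventricular wall at the time of injection, and brightness chose the cells, not a cell type. The cells came from several experiments, but the labels do not tie cells to an experiment or animal, so they were treated as 1 sample and were not tested against each other. Ranges, counts and exact Clopper-Pearson intervals describe these cells only.

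Excitatory neurons of the cortex arise from progenitors of the dorsal wall of the ventricle. Inhibitory interneurons arise in the ganglionic eminences of the ventral wall and migrate into the cortex. Gad1 and Gad2 make the transmitter GABA, Slc32a1 loads it into vesicles, and Dlx genes are transcription factors of the eminences. Lhx6 marks interneurons of the medial eminence, many of which make the peptide somatostatin (Sst), whereas Prox1, Nr2f2 and Adarb2 mark interneurons of the caudal eminence, among them those that make Vip. Slc17a7 loads glutamate into vesicles, and Neurod2 and Neurod6 are transcription factors of excitatory neurons.

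Among the 4 inhibitory-only cells, the peptide genes Sst and Vip were highest in different cells, and both are known for a cAMP response element close to the start of transcription. The 250 bases before each RefSeq start are shown for this reason (build GRCm38.p6, 5′ to 3′ on the strand of the gene), at chr16:23890845-23891094 on the minus strand for Sst and chr10:5638968-5639217 on the plus strand for Vip. Capitals mark TGACGTCA in Sst and TGACG in Vip.
Sst: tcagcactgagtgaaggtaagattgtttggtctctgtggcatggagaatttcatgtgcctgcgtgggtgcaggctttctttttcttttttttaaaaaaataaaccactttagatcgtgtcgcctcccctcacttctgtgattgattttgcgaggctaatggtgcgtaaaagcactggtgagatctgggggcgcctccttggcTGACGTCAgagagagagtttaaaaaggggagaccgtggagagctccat
Vip: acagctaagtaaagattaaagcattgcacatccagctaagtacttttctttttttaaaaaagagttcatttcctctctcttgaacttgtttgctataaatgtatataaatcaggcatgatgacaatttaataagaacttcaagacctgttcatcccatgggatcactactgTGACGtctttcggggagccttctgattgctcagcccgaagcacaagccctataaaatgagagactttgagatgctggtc
In the Sst promoter TGACGTCA began 48 bases before the start, and in the Vip promoter TGACG began 79 bases before it. On either strand, 1.55% of 32851 promoter stretches of this length held TGACGTCA and 17.8% held TGACG, which is part of the longer motif. The GENCODE M21 model of Sst begins further upstream, inside the stretch shown.

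In the 4 inhibitory-only cells, Gad1 was at 152 RPM in IL01_Pool1, 297 in IL06_Pool2, 249 in IL07_Pool3 and 250 in IL08_Pool4, with 289 to 2975 reads behind each value. Gad1 lies on chromosome 2 at 70553072 to 70602014 (GENCODE M21 on GRCm38, plus strand). Dlx1 was at 267, 250, 205 and 147 RPM in the same order. Both genes were therefore detected far above the limit in all 4 cells. Gad2 was at 255, 324, 1.72 and 134 RPM, so IL07_Pool3 held Gad1 nearly without Gad2. Slc32a1 was at 10.4, 185, 195 and 130 RPM, with IL01_Pool1 just inside the limit. Lhx6 was at 0, 365, 0 and 383 RPM, which split the cells into a pair with it and a pair without it. Sst was at 5288 RPM in IL08_Pool4 and between 0 and 1.42 RPM in the other 3. The highest value of any of the 3 excitatory markers in these cells was 4.31 RPM, for Neurod6 in IL07_Pool3.

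**Figure D1:**
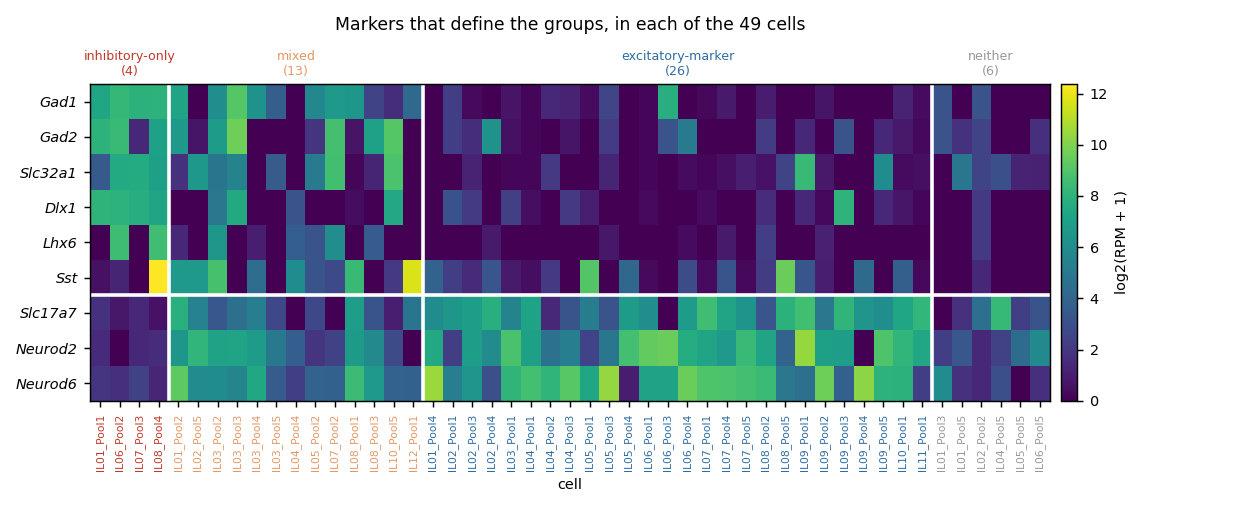
Level of the 9 genes of the rule (rows) in each of the 49 cells (columns, coloured by group), as log2(RPM + 1). The 6 inhibitory markers are above the horizontal line and the 3 excitatory markers below it, and the latter are dark in all 4 inhibitory-only cells.

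In the 26 excitatory-marker cells the median was 0.226 RPM for Gad1, 0.347 for Gad2, 0.221 for Dlx1, 0 for Lhx6 and 2.45 for Sst. Of these cells 14 had no inhibitory marker at the limit and 12 had 1. A few of the latter held that marker at a high level, such as Sst at 739 RPM in IL08_Pool5 and 529 RPM in IL05_Pool1, Slc32a1 at 324 RPM in IL09_Pool1, Dlx1 at 266 RPM in IL09_Pool3 and Gad1 at 213 RPM in IL06_Pool3. The limit also ran through a dense part of the values. Just inside it, the second highest inhibitory marker was at 10.6 RPM in IL08_Pool3, 10.8 in IL03_Pool5 and 11.8 in IL04_Pool4. Just outside it, that value was 8.90 RPM in IL09_Pool1, 8.76 in IL02_Pool4 and 8.10 in IL06_Pool3.

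Interneuron genes that the rule did not use were present in the inhibitory-only cells as a broad set. Maf, a transcription factor of interneurons (chromosome 8, 115682942 to 115707794), was at 316 RPM in IL01_Pool1, 1295 in IL06_Pool2, 333 in IL07_Pool3 and 1572 in IL08_Pool4. In the excitatory-marker cells it had a median of 3.69 and a highest value of 229 RPM. Its mean log2(RPM + 1) was 7.03 higher in the inhibitory-only cells.

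Dlx2, which acts with Dlx1 in the eminences, was at 468, 46.1, 134 and 160 RPM in the same order of cells against a median of 0 and a highest value of 58.1. All 4 cells were at the limit or above for Dlx2, compared with 2 of 26 excitatory-marker cells (7.69%, 0.946 to 25.1%). Dlx2 overlapped between the groups through the lowest of the 4 cells. Dlx6os1, a transcript antisense to Dlx6, was at 198, 123, 270 and 44.5 RPM against at most 19.4. It overlaps 5 annotated genes, and since the strand setting of the counting was not given, reads of overlapping genes cannot be told apart. Dlx5 was at 108, 142, 0 and 111 RPM and never above 1.56 RPM in the excitatory-marker cells, so IL07_Pool3 was the only inhibitory-only cell without it.

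A further 3 interneuron genes, named after their values were seen, reached 10 RPM in all 4 cells. Erbb4, a neuregulin receptor of interneurons, was at 573, 443, 301 and 16.3 RPM, with a median of 0.837 RPM in the excitatory-marker cells but 1899 in the highest of them. Grip1, a scaffold protein of glutamate receptors, was at 160, 853, 326 and 78.1 RPM against a median of 0.895 and a highest value of 247. Kcnc1, a fast potassium channel, was at 482, 56.8, 308 and 117 RPM against a median of 1.80 and a highest value of 258. All 4 cells were above the median of the excitatory-marker cells for each of these genes, and the ranges overlapped.

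Some of the other interneuron genes, picked out after the values were seen, divided the 4 cells in the way Lhx6 did, and others did not. IL06_Pool2 and IL08_Pool4 held genes known from the medial eminence. Nxph1, a secreted ligand of neurexins, was at 397 and 293 RPM in them, and the transcription factor Sox6 at 14.2 and 172 RPM. In IL01_Pool1 and IL07_Pool3 both genes ranged from 0 to 2.58 RPM. The pair also differed within itself. IL08_Pool4 held Sst, Reln, a secreted protein of early-born cells and many interneurons, at 1378 RPM, Calb1 at 701 RPM and Satb1 at 347 RPM, whereas IL06_Pool2 held at most 9.22 RPM of any of these and Tac1, a tachykinin precursor, at 118 RPM.

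IL01_Pool1 and IL07_Pool3 held genes known from the caudal eminence. Prox1 was at 422 and 328 RPM, Adarb2 at 279 and 650 RPM and Nr2f2 at 618 and 329 RPM. Neuropeptides and growth factors went along with these transcription factors and RNA-binding protein. Vip was at 1475 and 6203 RPM, Pnoc, the nociceptin precursor, at 1254 and 825 RPM, Igf1 at 1496 and 762 RPM, and Crh at 217 and 1540 RPM. In IL06_Pool2 and IL08_Pool4, these 7 genes ranged from 0 to 1.42 RPM except Crh, at 15.5 RPM in IL08_Pool4. The calcium-binding protein Calb2 was at 1108 RPM in IL01_Pool1 and 0.862 RPM in IL07_Pool3, and the cannabinoid receptor Cnr1 was at 376 and 3470 RPM. Vip was not counted among the higher genes, since 2 of 4 inhibitory-only and 7 of 26 excitatory-marker cells reached 10 RPM and these shares differ by less than 25 percentage points. Npas1, a transcription factor, crossed the division, at 1520 RPM in IL01_Pool1, 304 RPM in IL08_Pool4 and 0 in the other 2. Pvalb, the marker of another large interneuron class, was at 0 to 0.410 RPM in all 4 cells. A low Pvalb value at P7 does not by itself place a cell outside that class.

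**Figure D2:**
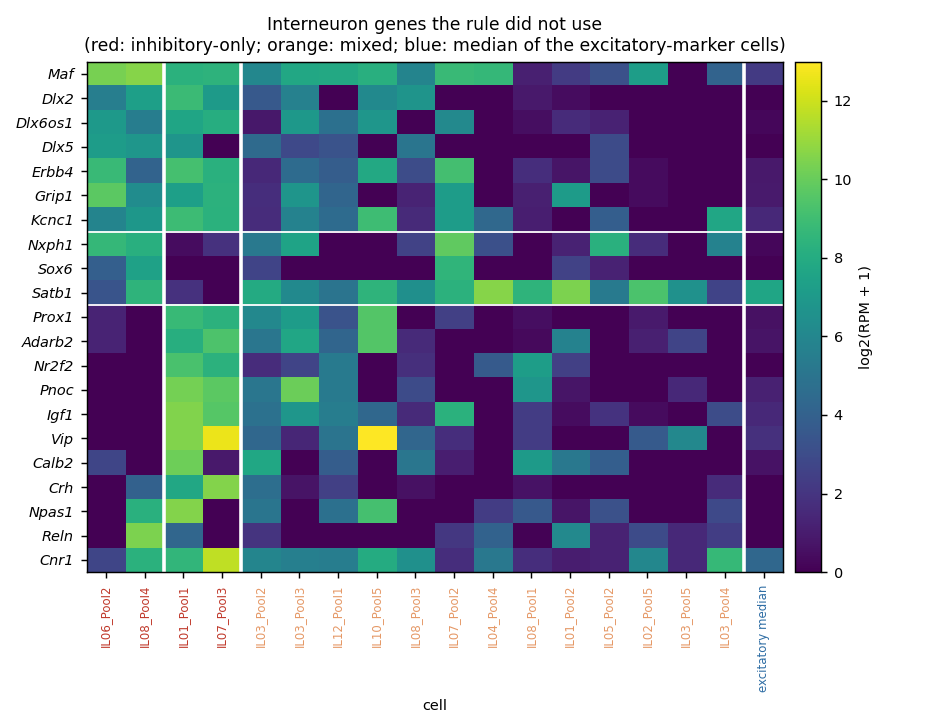
Level of 21 interneuron genes that the rule did not use, as log2(RPM + 1), in the 4 inhibitory-only and 13 mixed cells, with the median of the excitatory-marker cells in the last column. Genes of the upper block are bright in most inhibitory-only cells. Nxph1 and Sox6 are brighter in IL06_Pool2 and IL08_Pool4 on the left, and Prox1, Adarb2, Nr2f2, Pnoc, Igf1, Vip and Crh in IL01_Pool1 and IL07_Pool3 beside them.

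Over all genes, a gene was counted as higher or lower where the mean log2(RPM + 1) differed by at least 2 (4-fold) and the share of cells at 10 RPM or more differed by at least 25 percentage points in the same direction. Genes at 10 RPM or more in at least 5 cells were compared, 8626 without the 9 markers. Genes under 10 RPM in every excitatory-marker cell, such as Dlx5 and, below, Rbms3 and Sox2, pass this filter only through other cells. Against the excitatory-marker cells, 1115 genes (12.9%) were higher and 287 (3.33%) lower in the inhibitory-only cells. With 4 cells on 1 side, each of these cells changes a share by 25 percentage points, so counts for a list are read beside these percentages. Of 32 interneuron genes compared, 21 (65.6%) were higher and 1, Satb1, was lower. The median difference of the list was 3.61 on the log2 scale, against 0.41 over all genes compared. In Satb1, a chromatin protein found in both interneurons and upper-layer excitatory neurons, the 4 cells held 2.61, 9.22, 0 and 347 RPM against a median of 199 RPM.

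The 10 leading higher genes were chosen among those at the limit or above in each of the 4 cells. They included Rbms3, Maf, Dlx2, Grin2d, Dlx6os1, Btbd11, Npas3, Zcchc12 and Ankrd50. Rbms3, an RNA-binding protein (chromosome 9, 116572746 to 117629913), was at 218, 162, 211 and 236 RPM, and none of the 26 excitatory-marker cells reached 10 RPM, the highest being at 7.26 RPM. It passed the filter only through cells outside that group, and 10 RPM in each of the 4 cells was a condition of this list. The contrast was therefore largely set by the selection. Grin2d, a subunit of NMDA receptors, was at 219, 174, 584 and 72.3 RPM against at most 41.2 RPM. Btbd11 was at 258, 66.7, 229 and 101 RPM against at most 29.5 RPM, and Ankrd50 at 174, 262, 96.5 and 55.8 RPM against at most 12.3 RPM. These genes were ranked by their difference, so gaps between the groups among them add nothing further. Npas3, a transcription factor, was at 298, 175, 720 and 12 RPM, and Zcchc12 at 473, 145, 66.3 and 635 RPM. Both overlapped with the excitatory-marker cells, which reached 23.8 RPM for Npas3 and 871 RPM for Zcchc12.

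**Figure D3:**
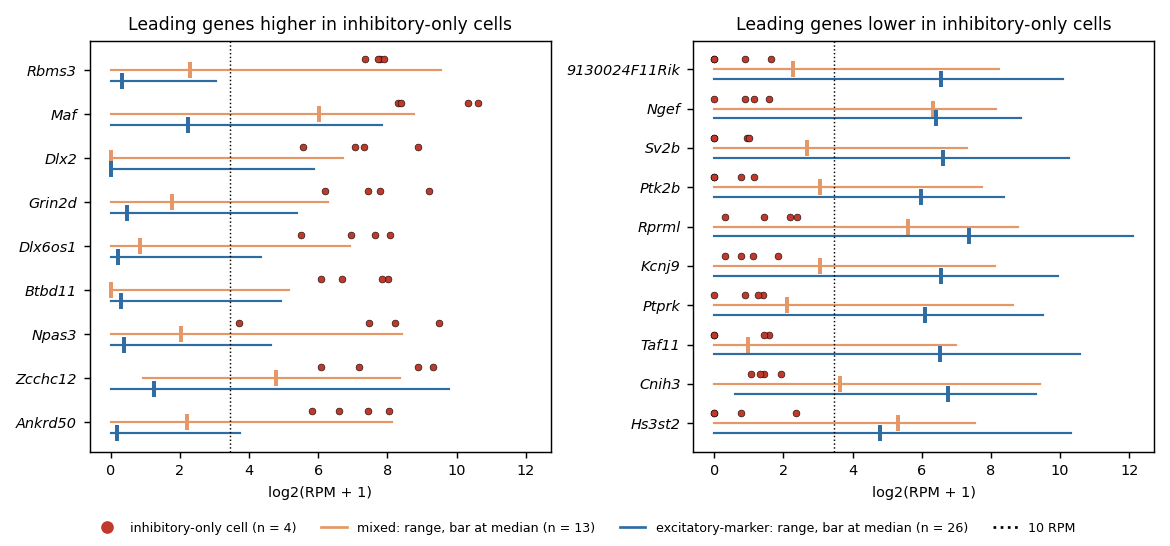
Leading higher and lower genes of the inhibitory-only cells on a log2(RPM + 1) axis. Points are the 4 inhibitory-only cells, lines the range and bars the median of the 13 mixed and 26 excitatory-marker cells, and the dotted line is 10 RPM. For Rbms3 all points lie to the right of the excitatory range.

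Many excitatory genes were lower in the inhibitory-only cells. Of 24 compared, 9 (37.5%) were lower, against 3.33% of all genes compared, and 0 were higher, with a median difference of -2.33. They included Tbr1, Emx1, Fezf2, Bhlhe22, Camk2a, Sv2b, Arpp21 and Hs3st2. Sv2b, a vesicle protein of glutamatergic terminals, was at 0.921, 0, 0 and 1.0 RPM in the same order of cells, against a median of 96.1 RPM. Emx1, a transcription factor of the dorsal progenitors and their offspring, was at 0.410 RPM in IL01_Pool1 and 0 in the other 3, but its median was only 4.04 RPM in the excitatory-marker cells, of which 7 of 26 reached 10 RPM. Nrgn, a calmodulin-binding protein of excitatory neurons, was at 109, 67.4, 120 and 72.1 RPM, against 75 to 7658 RPM with a median of 2676. Its mean was 4.47 lower, but it was above 10 RPM in every cell and so was not counted. Not all genes of the list were low. Mef2c was at 2063, 4854, 1837 and 333 RPM against a median of 2519, and Mpped1 was at 770 RPM in IL06_Pool2 and 1631 RPM in IL08_Pool4 against a median of 322.

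The 10 leading lower genes, all under 10 RPM in each of the 4 cells, were 9130024F11Rik, Ngef, Sv2b, Ptk2b, Rprml, Kcnj9, Ptprk, Taf11, Cnih3 and Hs3st2. Reads of 9130024F11Rik, a noncoding transcript at 0.870, 2.13, 0 and 0 RPM against a median of 94.1 RPM, cannot be told apart from those of genes it overlaps. Ngef, a guanine nucleotide exchange factor, was at 0 to 2.0 RPM against a median of 83.9, and Kcnj9, a potassium channel, at 0.25 to 2.58 RPM against 92.3. Each of the 10 genes also had values under 10 RPM in some excitatory-marker cells, so none separated the groups completely.

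Laminar genes of excitatory neurons followed in part. Of 11 superficial-layer genes, 4 (Pou3f2, Rorb, Lhx2 and Lmo3) were lower and 1 (Cux1) was higher. Of 9 layer 6 genes, 2 (Foxp2 and Hs3st4) were lower, and of 8 layer 5 genes, 2 (Sox5 and S100a10). The median difference was -1.55 for the superficial-layer and -1.69 for the layer 6 list. For the layer 5 list it was 0.27, near the 0.41 over all genes. Among all genes compared, 12.9% were higher and 3.33% lower. The 1 higher superficial-layer gene (9.09%) is below the former share. Foxp2 was at 0 to 1.28 RPM in the 4 cells against a median of 6.21 and a highest value of 1156 RPM. Bcl11b, which marks both deep-layer projection neurons and many interneurons, was at 0.205, 643, 3.45 and 118 RPM, against a median of 0.402 and a highest value of 1110.

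Receptor genes differed by subunit. Of 16 glutamate receptor genes, 5 (31.2%) were higher, among them Gria1, Grin2d, Grik1 and Grik3, and none was lower. Beside these counts, 12.9% of all genes compared were higher and 3.33% lower. Gria1, an AMPA receptor subunit, was at 188, 914, 33.6 and 452 RPM against a median of 9.77 and a highest value of 68.8 RPM. Grik1, a kainate receptor subunit that also stands in the interneuron list, was at 474, 2.84, 45.7 and 137 RPM. Grik3 was high in IL06_Pool2 (370 RPM) and IL08_Pool4 (183 RPM) and under 1 RPM in the other pair. Gria2 and Grin2b, which most neurons use, were at 215 to 852 RPM and 477 to 1601 RPM, within the ranges of the excitatory-marker cells. Of 13 GABA receptor genes, Gabra3, Gabrg3 and Gabbr2 were higher and 2, including Gabra4, were lower. Gabbr2, a subunit of the metabotropic receptor, was at 409, 287, 381 and 265 RPM against a median of 45.3 and a highest value of 797. Gabra4 was at 0 to 1.72 RPM against a median of 44.

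None of 15 pan-neuronal genes was counted in either direction, beside 12.9% of all genes compared that were higher and 3.33% lower. At 10 RPM or more were 13 to 15 of them in each of the 4 cells and 12 to 15 (median 14.5) in the excitatory-marker cells. This left little room for a difference in the share of cells, so the absence of counted genes says little about the levels of the pan-neuronal genes. Their summed level ranged from 10377 to 18537 RPM, within the 8701 to 28201 RPM of the excitatory-marker cells. All 4 cells thus carried the neuronal genes that the label of the samples calls for.

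The number of interneuron genes per cell separated the groups less sharply than their level. At 10 RPM or more, the inhibitory-only cells held 13, 17, 19 and 23 of 32, and the excitatory-marker cells 1 to 17 with a median of 5.5. The value of 17 belonged to IL02_Pool1, a shallow cell of 258130 reads, and the next was 9. After thinning to 209850 reads per cell, the inhibitory-only cells held 13.7 to 22.4 and IL02_Pool1 16.7. The summed level of the interneuron list covers all 37 of its genes measured, also those not among the 32 compared. It was 14285 RPM in IL01_Pool1, 6736 in IL06_Pool2, 17029 in IL07_Pool3 and 8734 in IL08_Pool4. In the excitatory-marker cells it was 155 to 3527 RPM, with 705 RPM in IL02_Pool1. By this level the groups did not overlap.

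By level, 3 of the 13 mixed cells stood with the inhibitory-only cells. The interneuron sum was 16823 RPM in IL10_Pool5, 7938 in IL03_Pool3 and 6207 in IL07_Pool2. In the other 10 mixed cells it was between 777 and 2187 RPM, inside the range of the excitatory-marker cells. Of these 10 cells, 8 had only 2 of the 6 inhibitory markers at the limit.

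**Figure D4:**
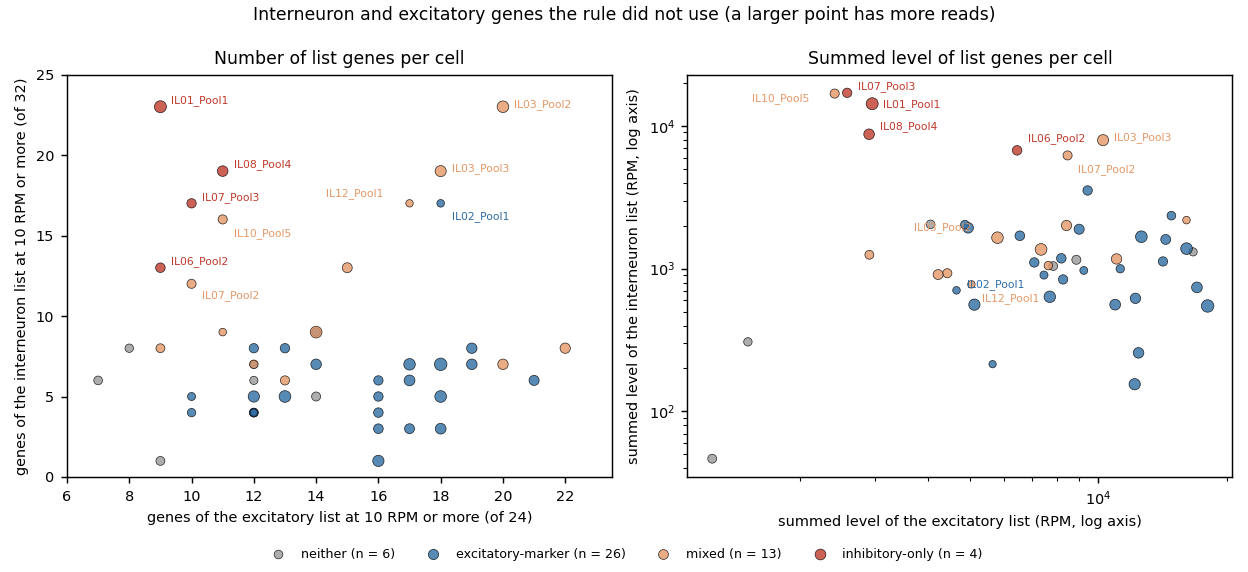
Interneuron against excitatory list genes in each of the 49 cells, as the number of genes at 10 RPM or more (left) and as the summed level in RPM on log axes (right). The left panel counts the 32 interneuron genes compared, and the right panel sums all 37 measured. Larger points have more reads. On the right the 4 inhibitory-only cells and the mixed cells IL10_Pool5, IL03_Pool3 and IL07_Pool2 lie at 6207 RPM or more and all other cells at 3527 RPM or less.

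IL10_Pool5 held Vip at 8113 RPM, Adarb2 at 740 RPM and Prox1 at 723 RPM, with Gad2 at 552 RPM and Slc32a1 at 462 RPM. Its excitatory markers were at 1.05, 6.30 and 13.7 RPM for Slc17a7, Neurod2 and Neurod6, so a single marker kept it out of the inhibitory-only cells. IL07_Pool2 held Nxph1 at 908 RPM, Maf at 439 RPM and Sox6 at 364 RPM, with Lhx6 at 65.3 RPM, and was likewise kept apart by Neurod6, at 13.3 RPM. Of the other genes described in the pair with Vip and Prox1, IL10_Pool5 held Igf1 at 18.9 RPM and had Nr2f2, Pnoc and Crh at 0. IL07_Pool2 held genes of the pair with Lhx6, but also Igf1, a gene of the other pair, at 313 RPM. IL03_Pool3 held Npy at 3671 RPM, Pnoc at 1073 RPM, Gad2 at 807 RPM, Gad1 at 559 RPM and Lamp5 at 441 RPM, and at the same time Neurod2 at 148 RPM, Neurod6 at 49.1 RPM and 18 of 24 excitatory genes at 10 RPM or more. Npy and Lamp5 are known from neurogliaform interneurons.

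The other mixed cells were unlike each other. IL03_Pool2 had all 6 inhibitory markers at the limit, from 27.3 RPM for Slc32a1 to 434 RPM for Sst, and 23 of 32 interneuron and 20 of 24 excitatory genes at 10 RPM or more, but an interneuron sum of 1648 RPM and Maf at only 64.5 RPM. The same cell also held 11 of 11 astrocyte, 7 of 7 oligodendrocyte lineage and 9 of 10 microglial genes at 10 RPM or more. Genes of many cell types were thus present in it. In IL12_Pool1, with 225363 reads, 1 read was worth 4.44 RPM. This cell held Sst at 3275 RPM and Gad1 at 17.7 RPM with the other 4 inhibitory markers at 0, and 17 of 32 interneuron genes with a sum of 777 RPM. It thus met the inhibitory rule only through a few reads of Gad1 beside Sst. Its excitatory markers at the limit, Slc17a7 at 26.6 RPM and Neurod6 at 13.3 RPM, stand for 6 and 3 reads. IL05_Pool2 held Nxph1 at 305 RPM, with Gad1 at 54.5 RPM and Neurod6, its only excitatory marker at the limit, at 13.6 RPM. Its excitatory sum was 2911 RPM, within the 2583 to 6456 RPM of the inhibitory-only cells, with 9 of 24 excitatory genes at 10 RPM or more. Its interneuron sum was 1251 RPM, inside the range of the excitatory-marker cells. The cell also held 9 of 11 astrocyte and 5 of 10 microglial genes at 10 RPM or more, and mitochondrial genes took 9.81% of its reads.

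Against the excitatory-marker cells, 156 genes (1.81%) were higher and 34 (0.394%) lower in the mixed cells. Of the 32 interneuron genes, 4 (12.5%), among them Nxph1 and Maf, were higher, with a median difference of the list of 1.14, and of the 24 excitatory genes 1 was lower, with a median of -0.51. Over all genes compared the median was 0.07. Of 10 microglial genes, 3 (30%) were higher, namely P2ry12, Tyrobp and Fcer1g, in addition to Apoe, Olig1, Vim and Bcl11b from other lists. The comparison of the mixed and that of the inhibitory-only cells share the excitatory-marker cells, so the values stand side by side only.

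**Figure D5:**
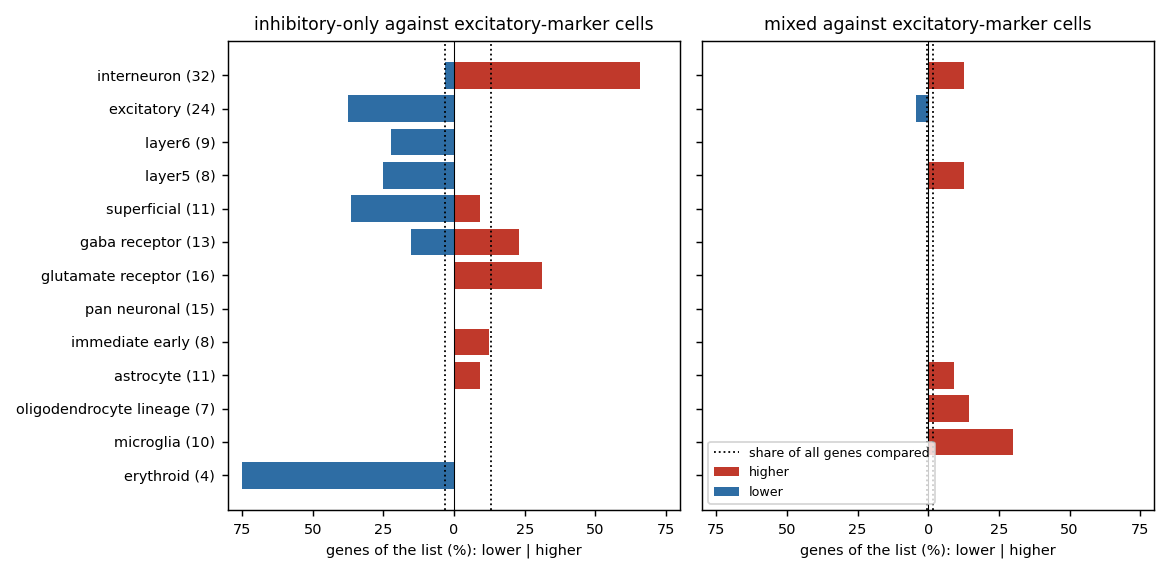
Share of the genes of each list (number compared in brackets) that were higher (red, to the right) or lower (blue, to the left) in the inhibitory-only and in the mixed cells than in the excitatory-marker cells. Dotted lines give the share of all 8626 genes, which is 12.9% higher and 3.33% lower on the left panel and 1.81% and 0.394% on the right. The interneuron bar reaches 65.6% on the left and 12.5% on the right.

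As 1 group, the 17 inhibitory-marker cells had 148 genes (1.72%) higher and 21 (0.243%) lower than the excitatory-marker cells. Of the 32 interneuron genes, 11 (34.4%) were higher and 0 lower. They included Dlx2, Dlx5, Dlx6os1, Nxph1, Maf, Kcnc1, Erbb4, Adarb2 and Grik1. The median difference of the list was 1.63, against 0.15 over all genes. Of the 24 excitatory genes, 2, including Sv2b, were lower, with a median of -0.88. Maf reached 10 RPM in 13 of 17 cells (76.5%, 50.1 to 93.2%) against 6 of 26 (23.1%, 8.97 to 43.6%). Sv2b reached it in 5 of 17 against 16 of 26.

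The 10 leading higher genes of the 17 cells included Maf, Rbms3, Rgs10, Zcchc12, Limch1, Grn, Alcam, Npc2 and Lypd1. Rgs10, a regulator of G protein signalling found in neurons and microglia, had a median of 177 RPM and was at the limit in 16 of 17 cells, against a median of 8.91 RPM and 11 of 26 cells. Grn, the progranulin precursor, had a median of 56.5 RPM against 0.556 RPM. Npc2, a lysosomal cholesterol carrier, had a median of 149 RPM against 7.01. Both Grn and Npc2 differed at least as much in the mixed cells (3.5 and 3.75 on the log2 scale) as in the inhibitory-only cells (3.13 and 1.91). The leading lower genes included Ubxn6, Taf11, Pccb, Rnpc3, 9130024F11Rik, Tmed8, Shank2, Ssbp2 and Sv2b. Shank2, a scaffold protein of excitatory synapses, had a median of 8.87 RPM against 103 RPM. Ubxn6 showed the difference more in the mixed cells (-3.36) than in the inhibitory-only cells (-1.79), whereas Shank2 showed -2.16 and -3.41.

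The count over the 17 cells depended strongly on choices. It was 12 higher and 0 lower with a pseudocount of 10, and 364 and 57 with a pseudocount of 0.1. Without library pool 1 it was 267 higher and 57 lower. Of the 148 higher genes, 141 were also counted after thinning to 209850 reads, and 120 still differed by at least 2 within library pools. For the inhibitory-only cells, 1084 of 1115 higher and 266 of 287 lower genes were also counted after thinning, and 988 and 243 still differed by at least 2 within library pools. The lower genes numbered 688 without library pool 4 and 468 without library pool 1, each of which removes 1 of the 4 cells.

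Library pool and depth were looked at as checks. Library pools 1 to 4 each held 1 inhibitory-only cell and pool 5 held none. Pools 1 to 5 held 2, 4, 2, 2 and 3 mixed and 9, 3, 5, 6 and 3 excitatory-marker cells. The median depth was 1804059 reads in the excitatory-marker cells (209850 to 35342325), 2703340 in the inhibitory-only cells (1160604 to 19533497) and 967537 in the mixed cells (225363 to 14416592). Within library pools, the median difference of the interneuron list was 3.87 for the inhibitory-only and 1.91 for all inhibitory-marker cells, and after thinning it was 3.78 and 1.72. A cell that holds more reads of a gene than all other cells of its pool together was counted for each interneuron gene. This was so for 18 genes in IL01_Pool1, 15 in IL08_Pool4, 6 in IL06_Pool2 and 5 in IL07_Pool3. Among the mixed cells it was so for 16 genes in IL03_Pool2, 14 in IL10_Pool5 and 13 in IL03_Pool3, for 0 in IL07_Pool2 and IL12_Pool1, and for at most 4 in the others, and among the excitatory-marker cells for 0 to 4. The part of reads passing between cells of a pool was not tested.

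Markers of other cells moved with the groups in part. At least 2 of the 10 microglial genes were at 10 RPM or more in 1 of 4 inhibitory-only cells (IL07_Pool3, 5 genes), 6 of 13 mixed cells and 7 of 26 excitatory-marker cells. Their summed level had a median of 45.6 RPM (2.25 to 1221) in the inhibitory-only, 352 RPM (2.62 to 7267) in the mixed and 17.9 RPM (0 to 5211) in the excitatory-marker cells. In IL07_Pool3, C1qb was at 357 RPM and Tyrobp at 346 RPM, and P2ry12, Tmem119 and C1qa were at 0. A comparison without the cells that held 2 microglial genes, chosen after seeing the data, left 10 inhibitory-marker and 19 excitatory-marker cells. Of the 8626 genes, 318 were higher and 97 lower in the inhibitory-marker cells, and 17 of 32 interneuron and 0 of 10 microglial genes were higher. The median difference of the interneuron list was 2.32, against 0.08 over all genes. These microglial genes chose the cells left out, so their count was largely set in advance. The astrocyte sum, over the 12 genes measured, had a median of 570 RPM (445 to 1267) in the inhibitory-only cells. It was 1118 RPM (93.2 to 6677) in the mixed and 574 RPM (78.1 to 8244) in the excitatory-marker cells. The oligodendrocyte lineage sum had a median of 47.4 RPM (3.58 to 479), 209 RPM (0 to 1372) and 69.5 RPM (0 to 1905) in the same order of groups. Hemoglobin took 0.00660 to 0.0445% of the reads of the inhibitory-only cells, 0.0126 to 21.6% in the mixed and 0.00278 to 11.6% in the excitatory-marker cells, and Hbb-bt, Hba-a1 and Hba-a2 were among the genes lower in the inhibitory-only cells. Mitochondrial genes took a median of 1.81, 2.55 and 0.866% of the reads. The part of these markers in the other differences was not tested.

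As a description of whole profiles, Pearson's r of log2(RPM + 1) over the 8626 genes was 0.420 to 0.516 among the 6 pairs of inhibitory-only cells, with a median of 0.458. Its median was 0.399 (0.249 to 0.546) in the 104 pairs of an inhibitory-only with an excitatory-marker cell and 0.398 (0.232 to 0.582) in the 325 pairs of excitatory-marker cells. In the 52 pairs of an inhibitory-only with a mixed cell it was 0.393 (0.311 to 0.581). The ranges overlapped, and some pairs of each of these kinds were above the highest pair of inhibitory-only cells. The highest of the 6 values joined IL01_Pool1 and IL08_Pool4, the deepest of the 4 cells, and all pairs share the effect of depth on the genes detected.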

How the data were processed

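Single FT cells were collected by patch pipette, and cDNA was made with a SMART-Seq v4 kit for 3′ ends and Nextera XT, in 5 library pools. Reads of 100 bases were aligned to GRCm38 (mm10) by STAR, HTSeq gave the counts, and the authors deposited them as RPM for 9020 genes, each of which reaches 100 RPM in at least 2 cells. Versions and the strand setting of the counting are not given in the sources used here. Such 3′-end RPM are not scaled by length, so levels were compared between cells and not between genes. Without molecular identifiers, copies of 1 molecule made by PCR cannot be told apart in these reads. Intervals are for shares of cells and cover only the error from the number of cells.

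Reads were recovered from the steps of the RPM values, where every nonzero value (100%) lay no more than 0.01 from a whole number of reads. The totals were 209850 to 35342325 reads per cell (median 1240101), and 1 read was worth 0.0283 to 4.77 RPM. The study's methods describe several independent experiments, with cells of different days in each library pool, but the labels give 1 group and tie no cell to an experiment or animal. The 49 cells were therefore treated as 1 sample, and neither a count model on the recovered reads nor any other test between cells was run.

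Groups followed the rule given with the results. Means of log2(RPM + 1) and shares of cells at 10 RPM were compared for genes at that level in at least 5 cells. The genes named are the 9 of the rule, all genes of the marker lists that were counted as higher or lower, and, for each comparison and direction, the 10 largest differences among genes still counted after thinning (mean of 20 draws) that kept their direction without each pool. In the inhibitory-only cells, the higher of these had to reach the limit in each cell and the lower to stay under it in each. Further list genes and cells were named after their values were seen. The groups, lists and rules were chosen with earlier results of these data known. The scripts were checked on simulated cells. Of the symbols in the table, 8835 had coordinates in GENCODE M21. The analysis used scipy 1.17.1, pandas 2.3.3, numpy 2.4.6 and matplotlib 3.10.9 in Python 3.11.15.

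The alternatives were other limits, numbers of markers and pseudocounts, no filter, thinning, totals without hemoglobin and mitochondrial reads, a minimum of 5 reads, a limit set by the reads in the rest of the pool, differences within pools, each pool left out, and cells with hemoglobin or glial genes left out. Leaving out cells with microglial genes was added after seeing the data. Radial positions are not used here. A few genes that the rules would name are not reported here, though they are part of the counts and sums.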

Additional observations from a re-analysis of the deposited data

Results flagged for a closer look

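Within the 4 inhibitory-only cells, 1 cell stood apart from the other 3 for 11 of 89 genes, by the gap between that cell and its nearest neighbour as a share of the range of log2(RPM + 1). The limit for this gap marks about 1 in 20 groups of 4 normally distributed values. Values of single cells with zeros are not so distributed, so that rate need not hold here. For the genes of the rule, Slc32a1 was low in IL01_Pool1 at 10.4 RPM (129.8 to 195 RPM in the others), Sst was high in IL08_Pool4 at 5288 RPM (0 to 1.42) and Neurod2 was low in IL06_Pool2 at 0 RPM (1.72 to 2.0). Among interneuron genes, Dlx5 was low in IL07_Pool3 at 0 RPM (108 to 142 in the others). The same cell was high for the microglial gene Tyrobp at 346 RPM (0.307 to 2.13). IL06_Pool2 was high for Vim, an intermediate filament of progenitors and glia, at 33.3 RPM (0 to 0.307) and for Hba-a2, a hemoglobin gene, at 16.3 RPM (0 to 0.50). IL08_Pool4 was high for Rnpc3 at 11.3 RPM (0 to 0.358) and Tmed8 at 4.0 RPM (0 to 0.102) and low for Gabrg3 at 0 RPM (82.7 to 202). Emx1 in IL01_Pool1, at 0.410 RPM against 0 in the others, stands for 8 reads and was marked because the other 3 cells are equal.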

How the results depend on the processing

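The number of inhibitory-marker cells was 30 with at least 1 marker and 9 with at least 3, and that of inhibitory-only cells 7 at a limit of 20 RPM, where IL05_Pool2, IL07_Pool2 and IL10_Pool5 joined. Excitatory-marker cells numbered 15 when a marker needed more than 4% of its reads in the rest of the pool, and 17 to 23 with a library pool left out (17 without pool 1). In the comparison of all inhibitory-marker cells, the higher genes numbered 364 with a pseudocount of 0.1, 12 with 10, 340 with groups at 20 RPM, 318 without cells holding microglial genes and 168 to 267 with a pool left out (267 without pool 1, 244 without pool 4 and 239 without pool 5). The lower genes numbered 57, 0, 17, 97 and 38 to 59 (59 without pool 2) in the same order, 33 within pools and 35 without cells of 1% hemoglobin or more. For the inhibitory-only cells, the higher genes numbered 273 with a pseudocount of 10 and 483 with groups at 20 RPM, and the lower genes 447 with a pseudocount of 0.1, 44 with 10 and 294 to 688 with a pool left out. In the comparisons of all inhibitory-marker and of inhibitory-only cells, no named gene changed direction under these alternatives. The leading genes were named for still being counted after thinning and keeping their direction without each pool. For them this outcome was therefore partly set in advance. Of 1040 values of named genes for the inhibitory-only cells, 27 moved by more than the spread between cells. For those cells the median difference of the microglial list, 0.31, was -0.22 without pool 1 and -0.72 without pool 3, and that of the astrocyte list, -0.35, was 0.43 with groups at 20 RPM. The cause of these changes was not tested. Leaving out cells with at least 2 genes of any glial list was not run, since 0 of 17 inhibitory-marker and 2 of 26 excitatory-marker cells remained. Some genes of those lists are also used by neurons. In the shallowest cell, of 209850 reads, 1 read is 4.77 RPM, which limits what these cells show. No paired analysis was possible because the labels give a single group.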

Other observations

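Progenitor and activity genes were not described above. In the inhibitory-only cells, of 4 progenitor genes compared, Sox2 and Top2a were higher and Hes1 lower than in the excitatory-marker cells. Sox2, a transcription factor of progenitors, was at 39.2 RPM in IL01_Pool1, 3.55 in IL06_Pool2, 0 in IL07_Pool3 and 140 in IL08_Pool4, against at most 5.64 RPM in the excitatory-marker cells. Top2a, a topoisomerase of dividing cells, was at 45.4 RPM in IL06_Pool2 and 159 RPM in IL07_Pool3 and near 0 in the other pair. Of 8 immediate early genes, Jun was higher, at 38.9, 450, 10.3 and 77.1 RPM in the same order of cells against a median of 10.6 RPM. Of 11 astrocyte genes, Clu, a secreted chaperone, was higher, at 414, 134, 426 and 271 RPM against a median of 55.4 RPM. None of 4 genes of olfactory bulb and striatal interneurons and none of 3 subplate genes was counted in any of the comparisons, and the median difference of the former was -1.29 in the inhibitory-only cells. Over all genes, 12.9% were higher and 3.33% lower in this comparison. The 1 immediate early gene (12.5%) and the 1 astrocyte gene (9.09%) are below the former share.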
